A study of Homo sapiens with 16 samples.

Results

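CTCF is a zinc-finger protein that binds a long DNA motif through an array of fingers. It stops the extrusion of chromatin loops by cohesin, the ring complex that contains RAD21, and so marks loop anchors and domain borders. In mitosis loops and domains are lost as chromosomes condense, and how much CTCF stays on its sites at that time has been found to differ between cell types.

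CTCF peaks were compared in LoVo, an established cell line from a human colon adenocarcinoma, between cells arrested in M phase and cells arrested in early S phase. All rows of both chromatin immunoprecipitation and sequencing (ChIP-seq) peak lists were taken, 24391 peaks in M phase and 28474 in S phase, together 52865 of the 146596 peaks listed for 6 targets in the series. M-phase cells had 1 block of 12 h in 2 mM thymidine and then 8 h in 200 ng/ml nocodazole, which prevents spindle assembly. S-phase cells had 12 h in 2 mM thymidine, 8 h of release and a further 12 h in thymidine. Both were fixed in 1% formaldehyde, sheared to between 200 and 400 bp and precipitated with 5 µg of CTCF antibody. Goat IgG from the same phase was the control. The sources used here do not give the share of cells that had reached each arrest. Peak lists hold no expression values, so the cell type could not be checked against marker genes.

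There was 1 library of CTCF per phase. No difference between the phases could therefore be set against a spread between samples, and no p-value was computed. Intervals are exact Clopper-Pearson 95% intervals over peaks for shares and Newcombe 95% intervals for differences of shares, and both cover counting error only. The M-phase library held 14186052 filtered tags against 7520364 in the S-phase library, 1.89 times as many, and the goat IgG controls held 4222390 and 3658103. The modelled fragment length was 191 bp in M phase and 308 bp in S phase. Per the file headers, the M-phase CTCF and RAD21 tags came from 1 set of alignments, but the S-phase CTCF tags came from a differently named set than those of S-phase RAD21, HNF4A, KLF5 and MYC. Whether these were the same cultures is not stated. Coordinates refer to hg18, a build of the human genome for which no annotation was used here, so regions are given by position and by the other proteins listed there.

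Most CTCF peaks were found in both phases, with summits mostly within 100 bp of each other. Of the M-phase peaks, 20188 (82.8%, 82.3 to 83.2%) shared 1 bp or more with an S-phase peak. The S-phase list had 19759 peaks (69.4%, 68.9 to 69.9%) that overlapped an M-phase peak. With an FDR under 5% in both lists the shares were 91.7% of M-phase and 40.1% of S-phase peaks. This limit left 8917 M-phase and 20190 S-phase peaks. With mostly one-to-one overlaps, the shorter M-phase list by construction limits the S-phase share. With the 10000 peaks of highest score in each list the shares were 64.5% and 63.5%. There, lists of equal length with mostly one-to-one overlaps make the shares alike by construction. There remained, over all listed peaks, 4203 M-only peaks, 17.2% of the M-phase list, and 8715 S-only peaks, 30.6% of the S-phase list. Few of these were near misses, since 4034 M-phase peaks still had no S-phase peak within 1000 bp, and 8460 S-phase peaks had no M-phase peak within 1000 bp.

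At 19311 sites, called one-to-one below, a single M-phase peak met a single S-phase peak. The summits of these pairs lay a median of 35 bp apart (quartiles 16 and 65 bp). They were within 50 bp of each other at 64.8% of the sites and within 100 bp at 88.8%, and over 500 bp apart at 165 sites. The M-phase peak lay wholly inside the S-phase peak at 15943 sites (82.6%), and the reverse held at 266 sites. A further 429 S-phase peaks met 2 or more M-phase peaks, whereas 12 M-phase peaks met 2 S-phase peaks. Where 1 S-phase peak met 2 M-phase peaks, the M-phase summits were a median of 1288 bp apart (quartiles 1023 and 1535 bp). The S-phase peaks that were divided in this way had a median width of 2862 bp, and 88.8% of them overlapped an S-phase RAD21 peak.

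Stronger peaks were more often found in the other phase, in both lists. The deposited MACS score, which is -10 times the log10 of the p-value, was used to divide each list into 10 equal groups. In the strongest group, 99.4% of M-phase peaks (99.0 to 99.7%) were found in S phase and 98.4% of S-phase peaks (97.8 to 98.8%) were found in M phase. In the weakest group the shares were 48.2% of M-phase peaks (46.2 to 50.2%) and 30.9% of S-phase peaks (29.2 to 32.6%). At every step between these the M-phase list had the higher share.

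**Figure D1:**
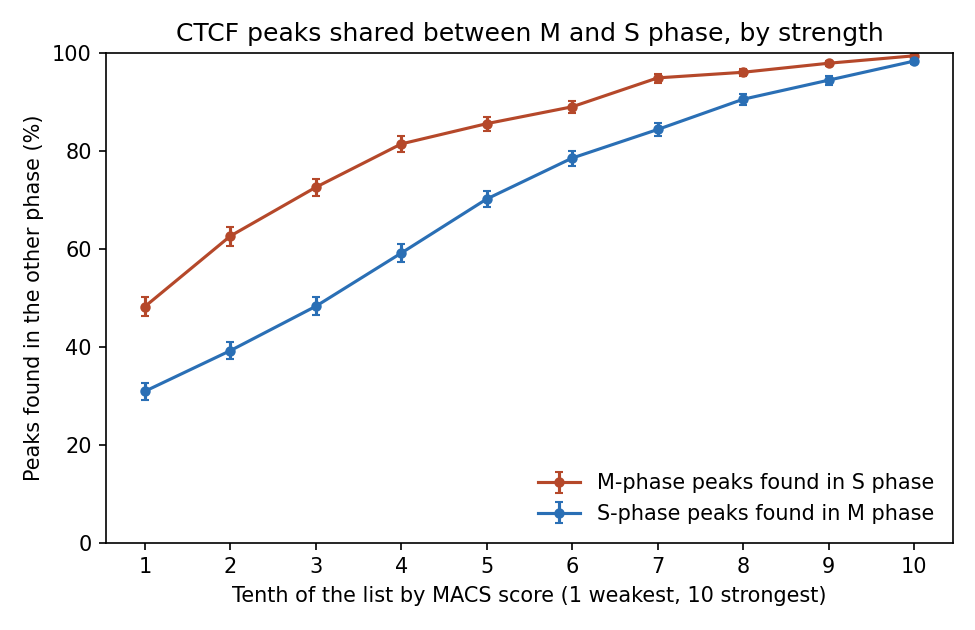
Share of CTCF peaks with an overlapping peak in the other phase (%) for 10 equal groups of each list by MACS score; points are shares, bars are exact 95% intervals over peaks, with M-phase peaks in red and S-phase peaks in blue. The M-phase list goes from 48.2% in its weakest group to 99.4% in its strongest, and the S-phase list from 30.9% to 98.4%.

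M-only and S-only peaks were weak for their own lists. M-only peaks held a median of 19 tags at 9.35-fold enrichment over the control, against 34 tags at 14.21-fold for M-phase peaks that were shared. S-only peaks held a median of 23 tags at 11.84-fold, against 54 tags at 17.37-fold for shared S-phase peaks. Fold enrichment is the authors' value for each peak within its list. The smallest peaks had 11 tags in both lists, which is 0.775 tags per 1000000 filtered tags (RPM) in M phase and 1.46 in S phase. Of the M-only peaks, 2505 (59.6%) were below the level of the smallest S-phase peak on this scale, as were 14.5% of the shared M-phase peaks. The part of depth in the number of M-only peaks was not tested.

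The authors' false discovery rate (FDR) divided the phase-only peaks differently in the 2 lists. It was under 5% for 239 M-only peaks (5.69% of them) and for 3656 S-only peaks (42.0%). Of all M-phase peaks with an FDR under 5%, 97.3% (97.0 to 97.6%) met a listed S-phase peak, and of such S-phase peaks 81.9% (81.4 to 82.4%) met a listed M-phase peak. This FDR did not follow strength at the top of the M-phase list. Of the 50 M-phase peaks of highest score 16 had an FDR of 5% or more, with values up to 20%, against none of the 50 strongest S-phase peaks.

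CTCF peaks were smaller in M phase at nearly every site. At the one-to-one sites the median was 34 tags over 900 bp in M phase and 54 tags over 1476 bp in S phase, although the M-phase library was the deeper one. The median was 2.40 RPM in M phase (quartiles 1.76 and 3.24) and 7.18 in S phase (quartiles 4.65 and 10.9). The ratio of M to S phase had a median of 0.330, or -1.60 on the log2 scale (quartiles -2.04 and -1.11). It was below 1 at 19003 sites (98.4%) and above 1 at 308. It was at least 2-fold lower in M phase at 79.7% of the sites, at least 4-fold lower at 27.3% and at least 2-fold higher at 6 sites, 0.0311% of them. These tags pool all cells of a culture, so that fewer cells with CTCF on a site and less CTCF on the site in each cell cannot be told apart. With 1 library per phase, neither can be told apart from a difference in enrichment between the 2 libraries as a whole.

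Part of the difference went with the called width, which was smaller in M phase at 96.2% of the sites. The shorter modelled fragment of the M-phase library moved in the same direction as the width, and its part in the result was not tested. Per kb of called width, the ratio had a median of 0.550, or -0.86 on the log2 scale (quartiles -1.23 and -0.49), and was below 1 at 94.0% of the sites. Over whole lists, 6.04% of the filtered M-phase tags fell in CTCF peaks covering 21.7 Mb, and 21.01% of the S-phase tags in peaks covering 41.3 Mb. RPM per kb of peak were 2.78 in M phase and 5.09 in S phase, a ratio of 0.547. For RAD21 the same measure was 2.48 in M phase and 3.73 in S phase, a ratio of 0.665, over nearly equal covered lengths of 24.7 and 24.6 Mb.

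**Figure D2:**
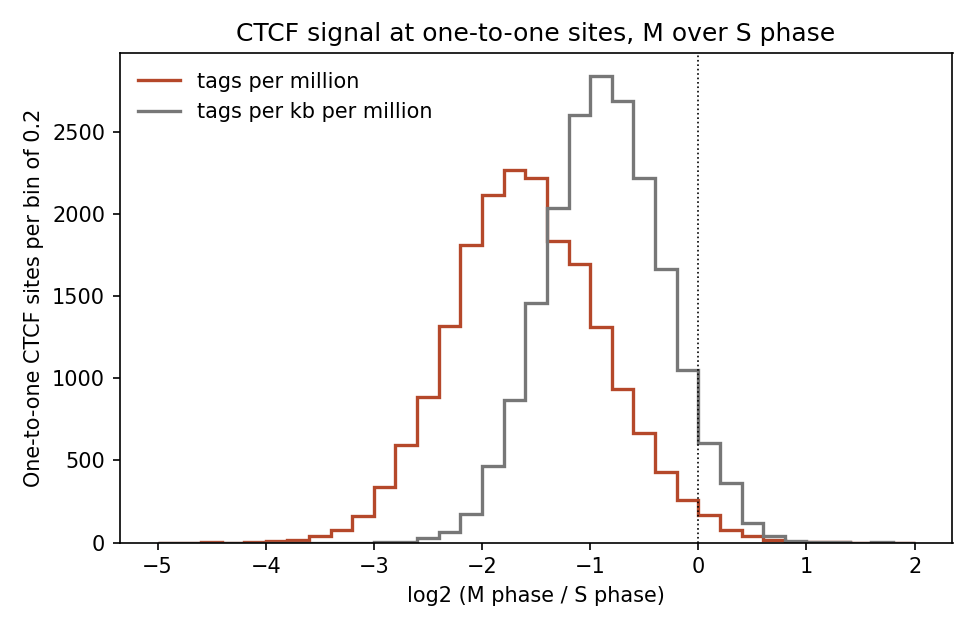
Histograms of the log2 ratio of M-phase over S-phase CTCF signal at 19311 one-to-one sites in bins of 0.2, as RPM (red) and as RPM per kb of called peak (grey); the dotted line marks equal signal. The medians are -1.60 and -0.86, and 98.4% and 94.0% of the sites lie below 0.

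The ratio was lower at sites of high summed signal, but not at sites with many M-phase tags. With the one-to-one sites in 10 equal groups by summed RPM, the median log2 ratio was -2.18 in the strongest group and -0.92 in the weakest, and per kb of width it was -1.36 and -0.31. Sites had to pass the threshold in both lists, which limits how low the ratio of a weak site can be. With sites ordered by their M-phase tags alone this order was not seen, and the median log2 ratio was -1.59 in the strongest group and -1.81 in the weakest. Both orderings use a term of the ratio itself. By construction, the S-phase RPM in the sum favours lower ratios at strong sites, and M-phase tags favour higher ones there. Over the one-to-one sites Spearman's rho between the phases was 0.62 for tags, 0.51 for the score and 0.27 for fold enrichment. Sites share both libraries, so this is given as a description.

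Named sites show the size of these changes in RPM. Fold enrichment over the control went the other way at some of them. Over all one-to-one sites its median was 14.21 in M phase and 17.37 in S phase. The one-to-one sites ranking highest in both lists together were all lower in M phase in RPM. All had RAD21 in both phases, as did 70.4% of all one-to-one sites. The first, on chromosome 15, held 211 tags from 38353412 to 38354769 in M phase and 504 tags from 38351201 to 38355385 in S phase. Its summits were 9 bp apart, and its signal was 14.9 RPM in M phase and 67.0 RPM in S phase. Its fold enrichment was 107.53 in M phase and 54.92 in S phase. On chromosome 12, the S-phase peak with the most tags of its list, 722 from 120713994 to 120718142, matched an M-phase peak of 201 tags from 120715777 to 120717834. Fold enrichment there was 22.6 in M phase and 28.13 in S phase. HNF4A, a nuclear receptor of gut epithelium, and MYC, a growth-promoting factor, had S-phase peaks there, and RAD21 was the only other protein listed in M phase. The site on chromosome 5 with 208 tags from 43141070 to 43142239 in M phase and 446 tags from 43140691 to 43142580 in S phase had the same partners, RAD21 in M phase and RAD21, HNF4A and MYC in S phase.

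At 308 sites the ratio was above 1. The highest ratio among sites with at least 50 M-phase tags was 2.42, on chromosome 21, where 73 M-phase tags from 10130518 to 10131455 stood against 16 S-phase tags. A site on chromosome 16 had 56 tags in M phase from 7015302 to 7016922 and 14 tags in S phase, a ratio of 2.12, and one on chromosome 19 had 75 tags in M phase from 33816213 to 33817536 and 19 tags in S phase, a ratio of 2.09. Fold enrichment over the control was lower in M phase on chromosome 21, 10.23 against 15.44 in S phase. It was also lower on chromosome 16, 5.61 against 13.06, but higher on chromosome 19, 20.26 against 12.08. Of the 5 sites of highest ratio, 4 had RAD21 in both phases, as did 70.4% of all one-to-one sites. The remaining one, on chromosome 12 from 124733997 to 124734879 in M phase, had RAD21 in S phase only. At the opposite end, on chromosome 7, 22 M-phase tags from 138675122 to 138675994 stood against 280 S-phase tags from 138674564 to 138677806, a ratio of 0.0417. RAD21, HNF4A and MYC were listed there in S phase and no other protein in M phase. A site on chromosome 17, with 14 tags from 63144061 to 63144656 in M phase and 121 tags from 63143833 to 63145379 in S phase, lay with MYC in S phase and with no other protein in M phase. The other 3 of the 5 sites of lowest ratio did have other proteins in M phase. These were RAD21 and MYC on chromosome 16 from 28765189 to 28765783, KLF5 and MYC on chromosome 1 from 144166874 to 144167738, and RAD21 on chromosome 1 from 10015070 to 10015466. Among the 5 sites of lowest ratio, fold enrichment was higher in M phase on chromosomes 7 (10.84 against 7.56), 16 (11.17 against 6.24) and 17 (11.69 against 8.88). At the sites on chromosome 1 it was lower in M phase, 8.16 against 17.58 and 16.24 against 18.77. For the M-phase peak starting at 144166874 the summits of the phases lay 1460 bp apart, so the 2 peaks may not mark the same site.

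CTCF sites with a transcription factor in S phase differed more between the phases than sites without one. At the 2263 one-to-one sites with an S-phase MYC peak, the median was 2.89 RPM in M phase and 13.6 in S phase, a log2 ratio of -2.19. At the 17048 sites without one it was 2.33 in M phase and 6.65 in S phase, a log2 ratio of -1.53. HNF4A gave -2.14 with and -1.55 without an S-phase peak, and KLF5, a Krüppel-like factor active in dividing crypt cells of the intestine, gave -2.19 and -1.56. These sites were also stronger, and sites of high summed signal had lower ratios. Within each of the 10 groups by summed RPM, the median log2 ratio was lower with MYC, with HNF4A and with KLF5, by a difference of -0.46 to -0.19. Per kb of width these differences lay between -0.23 and 0.07, and were negative in all 10 groups for MYC and HNF4A and in 8 for KLF5. For S-phase RAD21 the median log2 ratio was -1.62 with and -1.46 without a peak, and per kb of width -0.90 and -0.68. Its differences within groups of summed RPM went the other way: they were positive in all 10 groups, from 0.06 to 0.36, and per kb of width they were negative in 3.

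S-phase CTCF peaks with MYC or KLF5 were more often found in M phase than those without. Of the S-phase CTCF peaks with MYC 78.6% were found in M phase, against 68.3% without, a difference of 10.3 points (8.73 to 11.8). For KLF5 the shares were 77.7% with and 68.9% without it, and for HNF4A 73.6% and 69.1%. Compared within 10 equal groups of the CTCF score, the differences were 4.66 points for MYC (3.34 to 5.99), 4.64 for KLF5 (2.81 to 6.47) and 1.15 for HNF4A (-0.52 to 2.82), the last of which includes 0. Without RAD21 the difference within score groups was 10.2 points for MYC (7.53 to 12.9), and with RAD21 it was 4.34 (2.97 to 5.70). The factors themselves were seldom listed at these sites in M phase. Where CTCF was shared, an M-phase MYC peak was found at 13.0% of the S-phase CTCF peaks that had MYC, an M-phase KLF5 peak at 10.5% of those with KLF5 and an M-phase HNF4A peak at 9.36% of those with HNF4A. At S-only CTCF peaks these shares were 8.85% for MYC, 7.23% for KLF5 and 10.3% for HNF4A. The shares over all S-phase peaks of each factor are not given here, so these values are not particular to CTCF sites.

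In the M-phase list, CTCF peaks with a factor were less often found in the other phase. Of the 444 M-phase CTCF peaks with an M-phase MYC peak, 70.5% (66.0 to 74.7%) were found in S phase, against 83.0% of those without one. Within groups of the CTCF score the difference was -15.2 points (-18.8 to -11.6) for MYC, -8.07 (-13.8 to -2.31) for HNF4A and -6.55 (-11.5 to -1.57) for KLF5. Without such groups the KLF5 difference was -4.002 (-9.94 to 0.93), which includes 0. M-only CTCF peaks also met S-phase peaks of the factors more often than shared M-phase peaks did. MYC was listed in S phase at 16.2% of M-only peaks and 12.1% of shared ones, HNF4A at 10.1% and 7.32%, and KLF5 at 7.23% and 5.54%.

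CTCF peaks with RAD21 were found in the other phase more often than those without. With RAD21 in M phase, 92.5% of M-phase CTCF peaks (92.1 to 92.9%) were found in S phase, against 62.4% (61.3 to 63.5%) without it. This was a difference of 30.2 points (29.0 to 31.3), and of 22.1 points (20.99 to 23.3) within groups of the CTCF score. In the weakest of 3 equal groups of the M-phase list the shares were 82.9% with RAD21 and 45.6% without, and in the strongest 98.2% and 94.0%. The corresponding difference for S-phase peaks found in M phase was 35.4 points (34.2 to 36.6), 79.5% with and 44.1% without S-phase RAD21, and 18.7 points (17.3 to 20.01) within groups of the score. Peaks with an FDR under 5% in both lists gave smaller differences of 10.1 points for the M-phase list and 22.8 for the S-phase list. Among the one-to-one sites, 70.4% had RAD21 in both phases, 5.56% in M phase only, 11.3% in S phase only and 12.8% in neither. Of the M-only CTCF peaks, 58.1% had RAD21 in neither phase, and of the S-only peaks 45.0%.

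Where a CTCF peak was listed in 1 phase only and had RAD21 in that phase, the share with RAD21 in the other phase too was lower than at shared CTCF peaks. Of the 4166 S-only CTCF peaks with S-phase RAD21, 63.5% (62.0 to 65.0%) had a RAD21 peak in M phase too, although no CTCF peak was listed there. For shared CTCF peaks with S-phase RAD21 it was 86.3% (85.7 to 86.8%), and of all S-phase RAD21 peaks on autosomes 69.8% were found in M phase. Of the 1229 M-only CTCF peaks with M-phase RAD21, 74.0% (71.4 to 76.4%) had RAD21 in S phase, against 92.4% (92.0 to 92.9%) of the shared ones. The share over all M-phase RAD21 peaks is not given here. Within groups of the CTCF score, the difference between S-only and shared peaks was -15.9 points (-17.6 to -14.2), and that between M-only and shared peaks was -15.4 points (-17.9 to -12.8). Without such groups the difference between S-only and shared peaks was -22.8 points (-24.3 to -21.2), but -4.29 with the 10000 peaks of highest score in each list. CTCF peaks without RAD21 in their own phase went the same way. Among these, 13.8% of S-only and 30.5% of shared S-phase peaks had M-phase RAD21. S-phase RAD21 was found at 17.9% of such M-only and 46.1% of such shared M-phase peaks.

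**Figure D3:**
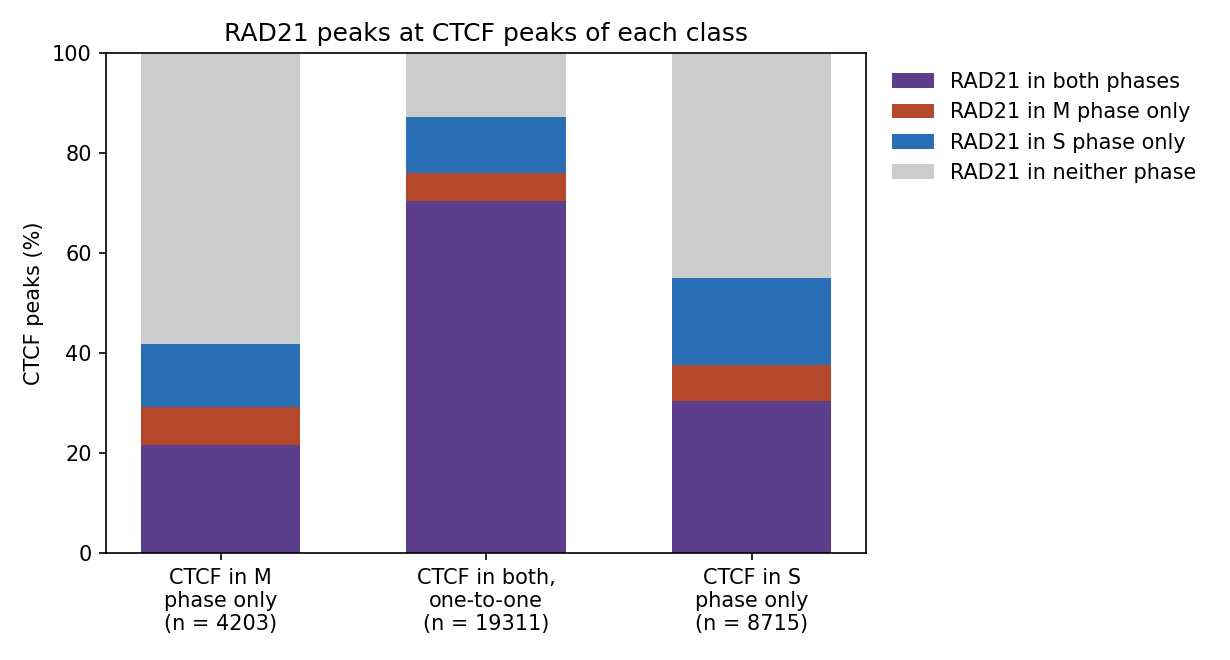
RAD21 peaks at 3 classes of CTCF peak: those listed in M phase only, the one-to-one sites of both phases, and those listed in S phase only; each bar divides the class (100%) by the phase in which RAD21 overlapped. RAD21 was present in both phases at 21.6% of M-only, 70.4% of one-to-one and 30.3% of S-only CTCF peaks.

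The phase-only peaks that led by fold enrichment all had RAD21, as did most strong peaks: in the strongest of the 10 groups by score, 87.8% of M-phase and 95.1% of S-phase CTCF peaks had RAD21 of the same phase. The 5 leading M-phase peaks with no S-phase CTCF peak within 1000 bp all had M-phase RAD21. At the first, 72 tags and 41.21-fold enrichment lay between 179273534 and 179274763 on chromosome 2, with none of the other proteins listed in S phase. The second, between 68168456 and 68169401 on chromosome 17, reached 33.11-fold with 45 tags and lay with RAD21, HNF4A and MYC in S phase. The 5 leading S-phase peaks with no M-phase CTCF peak within 1000 bp all had RAD21 in both phases. The first reached 68.88-fold with 67 tags between 126019732 and 126020612 on chromosome 5. The second reached 68.70-fold with 122 tags between 95096272 and 95098235 on chromosome 14. One of the 5 lay on chromosome X, between 153054735 and 153056120, and had 75 tags.

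On chromosome X a smaller share of the S-phase CTCF peaks was found in M phase than on any autosome. It had 415 CTCF peaks in M phase and 698 in S phase, a ratio of 0.595, whereas the ratio was between 0.798 on chromosome 22 and 0.964 on chromosome 15 for the 22 autosomes. Only 45.8% of the S-phase peaks on X (42.1 to 49.6%) were found in M phase. On the autosomes together it was 70.0% (69.5 to 70.6%), with a lowest value of 66.8% on chromosome 5. The difference was -24.2 points (-27.9 to -20.4). CTCF peaks on X were weaker, with a median of 19 tags in M phase and 23 in S phase, against medians per autosome of 27 to 42 in M phase and 34 to 61 in S phase. Within groups of the S-phase score the difference was -12.5 points (-15.9 to -9.08). In the weakest of 3 equal groups of the list 30.9% of X peaks and 41.5% of autosomal peaks were found in M phase, in the middle group 55.6% and 74.1%, and in the strongest 81.8% and 93.6%.

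In the other direction X lay within the range of the autosomes. M-phase peaks on X were found in S phase in 78.1% of cases (73.8 to 82.0%), within the autosomal range of 73.8 to 89.4%. The difference from the autosomes together was -4.79 points (-9.04 to -1.04), and 3.07 points (-0.80 to 6.94) within groups of the score. At the 316 one-to-one sites on X the median log2 ratio of M over S phase was -1.43, also within the autosomal range of -1.84 on chromosome 17 to -1.34 on chromosome 18. RAD21 was outside the autosomal range by a smaller margin than the S-phase CTCF peaks. It was above the range for the ratio of peak numbers and below it for the share found in M phase, whereas CTCF was below for both. RAD21 had 479 peaks on X in M phase and 520 in S phase, a ratio of 0.921 against 0.809 to 0.894 on the autosomes. The share of S-phase RAD21 peaks found in M phase was 65.0% on X (60.7 to 69.1%), below the lowest autosome at 67.0%, and 69.8% on the autosomes together, a difference of -4.84 points (-9.08 to -0.83). The number of copies of each chromosome in these cultures was not measured here, and its part in the result was not tested.

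**Figure D4:**
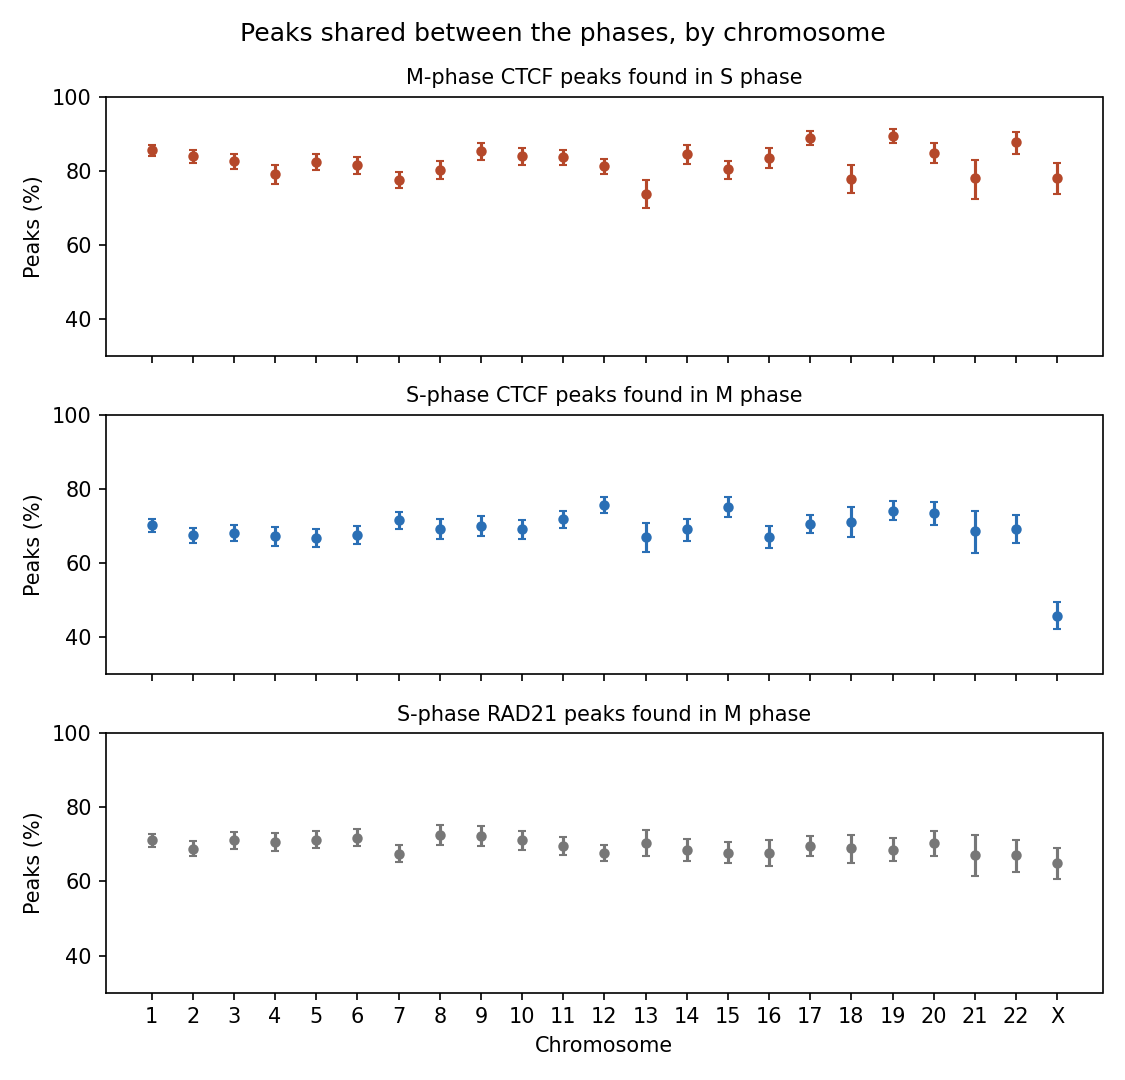
Share of peaks with an overlapping peak in the other phase (%) for each chromosome: M-phase CTCF peaks found in S phase (top), S-phase CTCF peaks found in M phase (middle) and S-phase RAD21 peaks found in M phase (bottom); bars are exact 95% intervals over peaks and the axis starts at 30%. Chromosome X has 45.8% in the middle panel, where the autosomes have 66.8 to 75.8%.

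Chromosomes 12 and 15 were at the other end for S-phase peaks found in M phase. Of their S-phase CTCF peaks, 75.8% (73.6 to 77.9%) on chromosome 12 and 75.2% (72.5 to 77.7%) on chromosome 15 were found in M phase. They had the highest ratios of M-phase to S-phase peaks, 0.957 and 0.964, and the highest median tags per peak, 40 and 42 in M phase and 53 and 61 in S phase. No difference within groups of the score is given for them, so the part of peak strength was not tested. In the other direction, 81.2% and 80.3% of their M-phase peaks were found in S phase, below the autosomal median of 83.0%. For RAD21, 67.7% of S-phase peaks were found in M phase on both, near the low end of the autosomal range of 67.0 to 72.6%. Chromosomes 17 and 19 combined the highest shares of M-phase peaks found in S phase, 88.9% and 89.4%, with the lowest M over S ratios at one-to-one sites, -1.84 and -1.77 on the log2 scale. Chromosomes 18 and 8 had the highest of these ratios, -1.34 and -1.42.

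Neighbouring CTCF sites had like ratios. Between a one-to-one site and the next along the chromosome, a median of 63.7 kb away, Spearman's rho of the log2 ratio was 0.35 over 19266 pairs. It was 0.18 for sites 5 places apart (median 489 kb), 0.10 for sites 10 places apart (median 1072 kb) and 0.06 for sites 20 places apart (median 2348 kb). Per kb of width it was 0.24 for the next site and 0.13 at 5 places. These values are descriptions, since all pairs share the same libraries. Phase-only peaks also followed each other more often than they followed shared peaks, by little in the S-phase list. After an M-only peak the next M-phase peak was also M-only in 23.6% of cases (22.3 to 24.9%), against 15.9% (15.4 to 16.4%) after a shared peak. For S-only peaks the shares were 32.5% (31.5 to 33.5%) and 29.7% (29.1 to 30.4%). Over the whole lists, 17.2% of M-phase peaks were M-only and 30.6% of S-phase peaks were S-only, so both S-phase values lay near the list share. Chromosome X, where fewer S-phase peaks were found in M phase, was not left out.

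**Figure D5:**
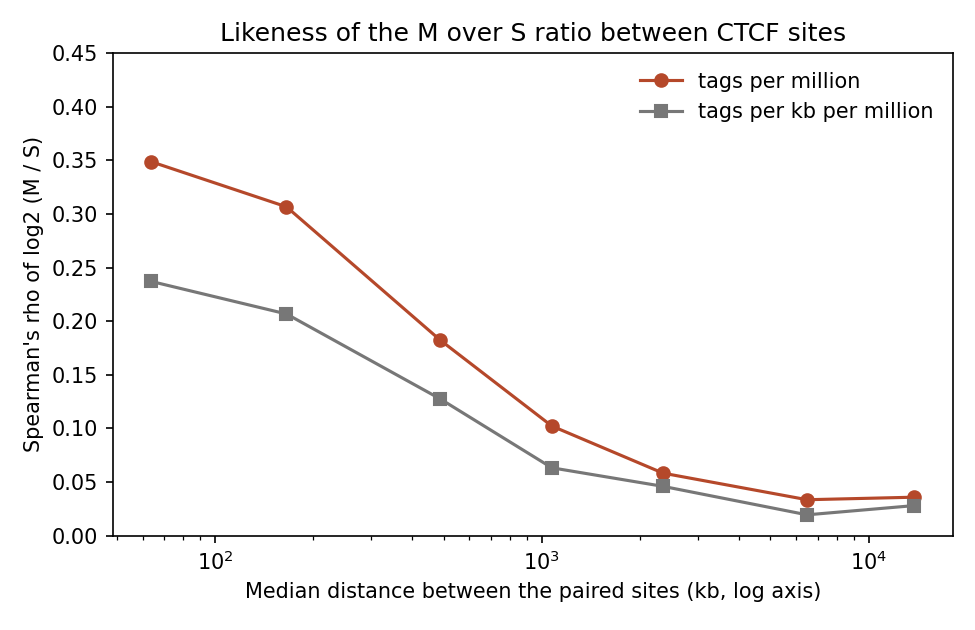
Spearman's rho between the log2 ratios of M over S phase at pairs of one-to-one CTCF sites 1, 2, 5, 10, 20, 50 or 100 places apart, against the median distance of the pairs in kb (log axis), for RPM (red circles) and RPM per kb of called width (grey squares). The correlation falls from 0.35 at 63.7 kb to 0.06 at 2348 kb for RPM.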

How the data were processed

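ChIP-seq peak lists of CTCF in 1 M-phase and 1 S-phase library of LoVo cells were used, with the lists of RAD21, HNF4A, KLF5, MYC and histone H3 of both phases. Per the submitters' processing notes, CASAVA 1.4, BWA, MACS 1.4 and the build hg18 were used. Per the file headers, MACS 1.4.0rc2 called peaks on merged alignments against IgG with a band width of 300 bp, a p-value limit of 1e-05, model folds between 2 and 6 and no more than 1 tag per position. This last step removed 39.0% of the M-phase and 37.1% of the S-phase CTCF tags. Tag counts were deposited as raw whole numbers for each peak. In the deposited lists the score equals the log10 p-value from MACS multiplied by -10, the deposited fold enrichment is a ratio over the local control background, and the deposited FDR is a percent. The labels give both list lengths as peaks with an FDR under 5%, but the lists also hold peaks of higher FDR.

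Overlaps, tags per 1000000 filtered tags and intervals were computed with scipy 1.17.1, pandas 2.3.3 and numpy 2.4.6 under Python 3.11.15, and figures with matplotlib 3.10.9. All listed peaks were used; 29 M-phase and 49 S-phase peaks lay outside chromosomes 1 to 22 and X and stayed out of values by chromosome. Differences within groups of the score weight 10 equal groups by the smaller class and have normal 95% intervals. The overlap and difference steps were tested on simulated data. Members, classes and lists were chosen with earlier results of these data known. Named sites lay on chromosomes 1 to 22 and X, away from H3 peaks. They were the leading 5 by summed tag rank, by highest ratio (at least 50 M-phase tags) and by lowest ratio (at least 50 S-phase tags), the leading 5 phase-only peaks by fold enrichment, and the leading 100 kb windows by number of peaks. A part of these is named. Alternatives changed how overlap was defined, set limits on the score or FDR, made the lists equally long, left out peaks at H3 or used tags per kb.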

Additional observations from a re-analysis of the deposited data

How the results depend on the processing

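The shares found in the other phase, the median log2 ratio, the RAD21 differences and the X difference were recomputed under the alternatives. None of these reversed its direction, but most values moved by more than counting error. The other results, such as those on HNF4A, KLF5 and MYC, other chromosomes and neighbouring sites, were not recomputed under them. With at least 50% of each peak shared, 61.8% of M-phase and 52.9% of S-phase peaks were found in the other phase, the median log2 ratio was -1.45, and S-phase peaks with RAD21 were found in M phase 30.9 points more often than those without. With summits within 250 bp, 79.5% of M-phase and 68.1% of S-phase peaks were found, the log2 ratio was -1.61, and M-phase peaks with RAD21 exceeded those without by 31.8 points. With a score of at least 100 in both lists, the shares were 84.0% of M-phase and 61.0% of S-phase peaks, the log2 ratio was -1.64, and the RAD21 differences were 18.8 points for M-phase and 25.5 for S-phase peaks. With an FDR under 5%, which left 8917 M-phase and 20190 S-phase peaks, they were 91.7% and 40.1%, -1.61, 10.1 and 22.8 points. With the 10000 peaks of highest score in each list, they were 64.5% and 63.5%, -1.76, 22.8 and 15.5 points. Lists of equal length make the first pair of these alike by construction. With an FDR under 5%, the shorter M-phase list limits the S-phase share by construction. Per kb of called width, the log2 ratio was -0.86. M-phase RAD21 at S-phase CTCF peaks with RAD21, S-only minus shared (alternatives chosen after seeing the data), was -14.7 points with 50% shared, -12.1 with a score of at least 100, -9.93 with an FDR under 5% and -4.29 with 10000 peaks. For S-phase peaks found in M phase, X minus autosomes, the alternatives, also chosen after seeing the data, gave between -30.6 and -21.2 points. Leaving out peaks at H3 peaks kept every one of these results within its interval. The causes were not tested. No paired analysis was possible because each group had 1 library, for which reason none could be left out either.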

Other observations

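In 2 regions, chosen after their values were seen, the lists differed over a long run of consecutive CTCF peaks. On chromosome 21 from 19801539 to 24808631, 11 M-phase CTCF peaks in a row, with 14 to 29 tags each, had no S-phase CTCF peak among them, and no S-phase CTCF peak was listed anywhere in these 5007 kb. RAD21 had 16 peaks in M phase and 16 in S phase over the same stretch, and overlapped 8 of the 11 CTCF peaks in M phase and 6 in S phase. On chromosome 4 from 90625830 to 91433853, 11 S-phase CTCF peaks in a row, with 14 to 34 tags each, had no M-phase CTCF peak within these 808 kb. RAD21 had 11 peaks there in M phase and 12 in S phase, and overlapped 9 of the 11 CTCF peaks in both phases.

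The fixed windows of 100 kb with the most S-only peaks lay on chromosomes 1 and 5. That on chromosome 1 from 6000001 to 6100000 had 6 S-only peaks of 7 S-phase peaks. Those on chromosome 5 had 5 of 7 from 140500001 to 140600000 and 5 of 6 from 140700001 to 140800000. Over the whole list 30.6% of S-phase peaks were S-only. The windows with the most M-only peaks held 4 of 4 M-phase peaks on chromosome 16 from 15000001 to 15100000 and 4 of 5 on chromosome 22 from 38000001 to 38100000. Over the whole list 17.2% of M-phase peaks were M-only. The choice of windows fixes these S-only and M-only numbers. Among the windows with the most one-to-one sites, a number that the choice of windows fixes, that on chromosome 12 from 50800001 to 50900000 had 9 CTCF peaks in each phase, 7 of them one-to-one.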
